A study of Mus musculus with 6 samples.

Results

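The genes described here are 10 genes of the lipoxygenase and cyclooxygenase pathways, of which 9 are among the 19938 genes measured on the arrays by a probe set with 1 gene symbol. They are Alox15, Alox5, Alox5ap, Lta4h, Ltc4s, Ptgs1, Ptgs2, Ptges, Pla2g4a and Pla2g7. Each of the 9 measured genes had 1 probe set, so no choice between probe sets was needed. Ptgs1, the constitutive cyclooxygenase, was not analysed here. The set was drawn up because Alox15 stood much higher with rapamycin on these same arrays, so the values of Alox15 are given as a description with no test. The other genes were named for their place in the pathway.

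The cells came from the spleens of lethally irradiated B6D2F1/J mice that had received T cell-depleted marrow of B6 mice, and they were taken 10 days after the transplantation. One group of 3 mice had been injected intraperitoneally with 1.5 mg/kg rapamycin, an inhibitor of the kinase mTOR, on alternate days. The other group of 3 mice had been injected with PBS. B6 spleen cells, the source of donor T cells in this model, were or were not added to the grafts, and the labels do not say for which mice. Nor do they give the age or sex of the mice. The cells were collected with magnetic beads against CD11b, an integrin of granulocytes, monocytes and macrophages, and are called myeloid-derived suppressor cells in the labels. All 7 genes of a list of CD11b-positive myeloid cells were bright. None passed the test of a difference between the groups (limma), against 11.3% of all genes tested. At an unadjusted p under 0.05 there were 0 of the 7, against 28.2%. The mean log2 level of the 7 was between 11.65 and 11.82 with rapamycin and between 11.69 and 11.75 with PBS. Such a sort holds neutrophils, monocytes and macrophages together, so for each gene below a change in the number of expressing cells and a change in RNA per cell cannot be told apart.

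Eicosanoids are short-lived signalling lipids made from arachidonic acid. Phospholipase A2 frees the fatty acid from membranes. Lipoxygenases then turn it into leukotrienes, hydroxy fatty acids and precursors of the pro-resolving lipoxins, and cyclooxygenases turn it into prostaglandins and thromboxane. In myeloid cells leukotriene B4 draws in neutrophils, while prostaglandin E2 is a known mediator by which suppressor cells restrain T cells.

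Values are the authors' log2 expression values per probe set, made with RMA, and a difference of 1 is a 2-fold difference. Genes were tested where the mean of the 6 arrays was at least log2 4.72, the 30th percentile of the named ones. This held for 13965 genes, among them all 9 measured genes of the set. Tests are limma's over these genes, with Benjamini-Hochberg adjustment, and calls were made where the adjusted p was under 0.05. Of all genes tested, 11.3% were called, 4.42% higher and 6.92% lower with rapamycin. These are 617 and 967 genes, and 722 and 743 once each array's median was aligned. The median log2 change over all genes tested was -0.017. The array medians lay between 5.42 and 5.46, and 2 arrays of a group correlated at 0.9953 or more across probe sets. The number of arrays limits the precision of each value. Levels of different probe sets are not comparable on such arrays, so genes are compared only between groups.

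The 9 measured genes did not move as a block. Alox15 stood more than 5-fold higher with rapamycin, and the phospholipases Pla2g7 and Pla2g4a rose modestly. Alox5, Alox5ap, Lta4h and Ltc4s of the leukotriene branch did not pass the test. The inducible cyclooxygenase Ptgs2 and its partner Ptges lay on opposite sides of PBS, neither past the threshold. Of the 8 genes other than Alox15, 2 were called higher and 0 lower by limma, against 11.3% of all genes called in either direction, and 5 had an unadjusted p under 0.05, against 28.2% of all genes tested. The groups did not overlap for 4 of these 8 genes (Alox5ap, Ptges, Pla2g4a and Pla2g7), against 32% of all genes tested (12.6% higher and 19.4% lower). The median log2 change of the 8 was 0.20. With each array left out in turn, Pla2g7 was the single gene called in 5 of 6 fits. Leaving out rapamycin replicate 3 gave 3 calls, Ptgs2 and Pla2g7 higher and Ptges lower.

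**Figure D1:**
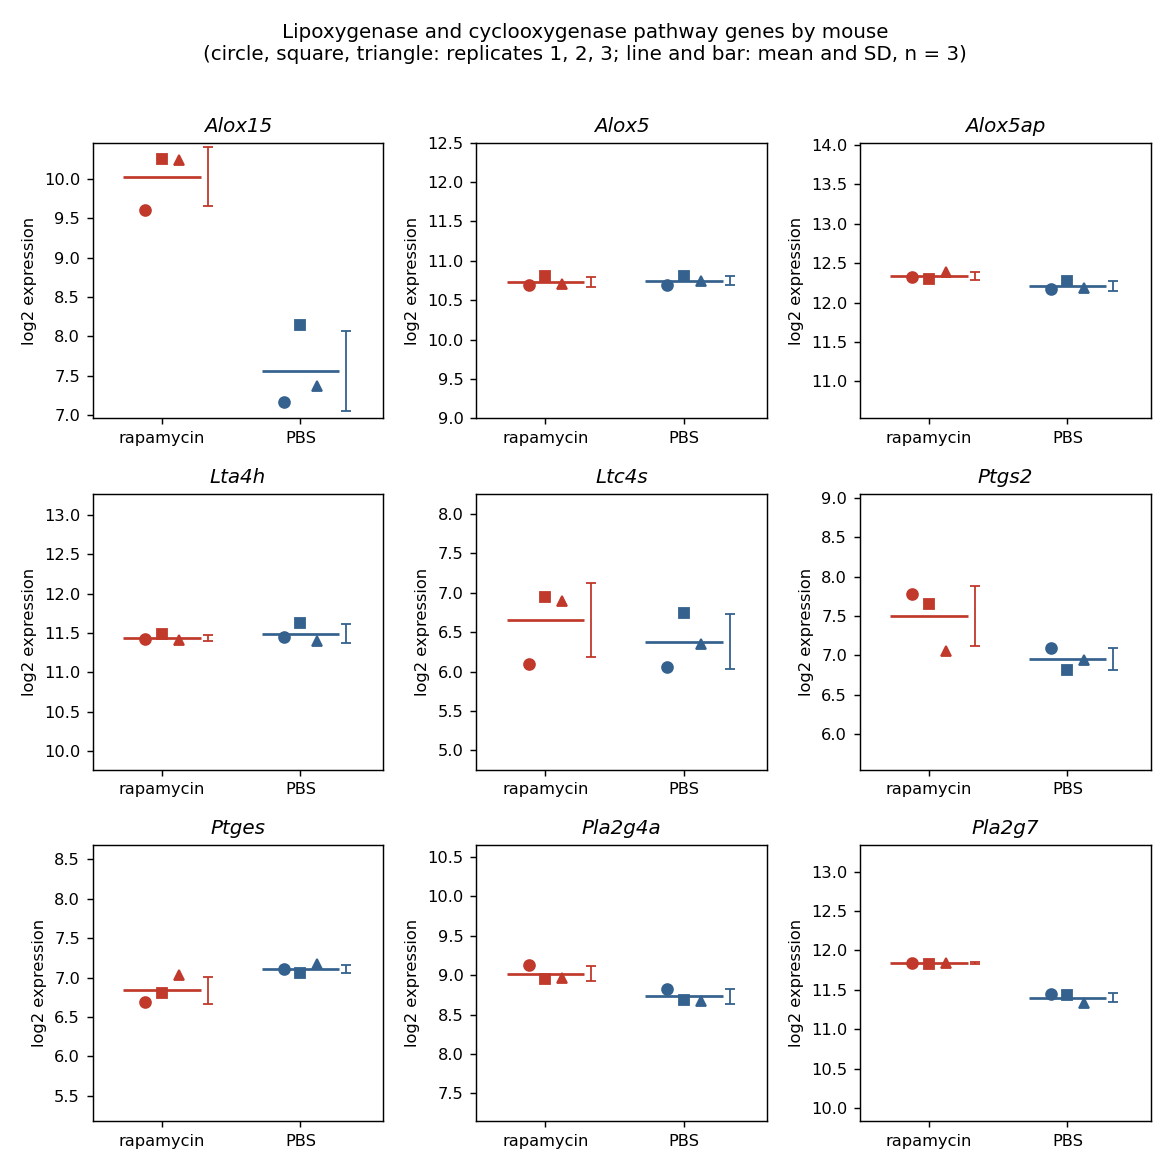
Log2 expression of the 9 measured genes in each mouse, rapamycin (red) left of PBS (blue), with circles, squares and triangles for replicates 1, 2 and 3, the group mean as a line and the SD as a bar (n = 3 each); every panel spans the same height on the log2 scale. Alox15 shows a wide gap between the groups (lowest rapamycin value 9.60, highest PBS value 8.14), Pla2g7 and Pla2g4a show small gaps, and the groups overlap for Alox5, Lta4h, Ltc4s and Ptgs2.

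Alox15 encodes the lipoxygenase that in mice makes hydroxy fatty acids from arachidonic and linoleic acid. Eosinophils and resident macrophages of the peritoneal cavity are known for it, and interleukin-4 induces it in monocytes and macrophages. Its probe set (10387855, chromosome 11) gave log2 values of 9.60, 10.25 and 10.24 in the 3 rapamycin mice, against 7.17, 8.14 and 7.37 in the 3 PBS mice. Every rapamycin mouse lay above every PBS mouse. The group means were 10.03 ± 0.37 with rapamycin and 7.56 ± 0.51 with PBS (SD, n = 3 each). Alox15 thus differed by 2.47 ± 0.27 (SE) on the log2 scale, or 5.54-fold. With each array left out in turn, the log2 change ran between 2.27 and 2.76. Within the groups, rapamycin replicate 1 was the lowest of the rapamycin mice and PBS replicate 2 the highest of the PBS mice.

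The 5 genes whose pattern was most like that of Alox15 were found by Pearson's r over the 6 arrays, among 151 tested genes with a log2 range of at least 1 over the arrays. The arrays fall into 2 groups, so a high r here says mainly that the groups differ in the same direction. Prg4, the secreted proteoglycan lubricin and a gene of large peritoneal macrophages, came first with r = 0.993. It gave 9.74, 10.27 and 10.60 in the rapamycin mice, against 6.99, 7.69 and 6.81 in the PBS mice. As for Alox15, rapamycin replicate 1 was the lowest of its group and PBS replicate 2 the highest of its group. The other ends differed. Prg4 was highest in rapamycin replicate 3 and lowest in PBS replicate 3, Alox15 in rapamycin replicate 2 and PBS replicate 1. Prg4 was picked by its r over these same arrays, so the shared order is no separate result. Serpinb2, a plasminogen activator inhibitor of macrophages, followed at r = 0.986 with means of 7.84 ± 0.13 with rapamycin and 6.77 ± 0.28 with PBS. Next came Wfdc17, a small secreted protein with a WAP domain (r = 0.980, means 11.36 ± 0.16 with rapamycin and 10.32 ± 0.15 with PBS). The last were Wdr83os (r = 0.977, 10.00 ± 0.09 with rapamycin and 9.01 ± 0.09 with PBS) and the lipopolysaccharide co-receptor Cd14 (r = 0.971, 9.54 ± 0.16 with rapamycin and 8.39 ± 0.16 with PBS). All these are means ± SD, n = 3 each.

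Markers of the cells known for Alox15 were read beside it. Of 7 measured eosinophil markers, Epx, Prg2 and Il5ra lay under the brightness threshold. Of the other 4, 0 were called by limma, against 11.3% of all genes tested. At an unadjusted p under 0.05 there were 0 of the 4, against 28.2%. Ccr3 and Prg3 lay just above the threshold, so these counts cannot show whether eosinophil content changed. Ear6 varied most between mice (SD 0.91 with rapamycin and 0.26 with PBS). Siglecf, a surface lectin of eosinophils, differed by 0.03 ± 0.04 (SE, limma adjusted p 0.672). The mean log2 level of the 7 was between 5.33 and 5.54 with rapamycin and between 5.37 and 5.45 with PBS. Of 7 measured markers of large peritoneal macrophages 3 were called higher and 0 lower, against 4.42% higher and 6.92% lower of all genes tested. At an unadjusted p under 0.05 6 were higher, against 28.2% of all genes in either direction. The called ones were Prg4, the transcription factor Gata6 (0.22 ± 0.06, limma adjusted p 0.0473) and the surface protein Cd93 (0.60 ± 0.15, limma adjusted p 0.0456). The last 2 calls were close to the threshold. Prg4 had already been picked above as the gene most like Alox15. The counts of 3 and 6 include it, so they are not independent of the Alox15 values. The phagocytic receptor Timd4 differed by 0.71 ± 0.19 (limma adjusted p 0.0588), and F5 went the other way (-0.09 ± 0.09, limma adjusted p 0.528). The mean log2 level of these 7 markers was between 7.54 and 7.78 with rapamycin and between 6.89 and 7.03 with PBS. Without Prg4, the mean of the other 6 was between 7.17 and 7.31 with rapamycin and between 6.87 and 6.99 with PBS. The part of these markers in the Alox15 values was not tested.

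**Figure D2:**
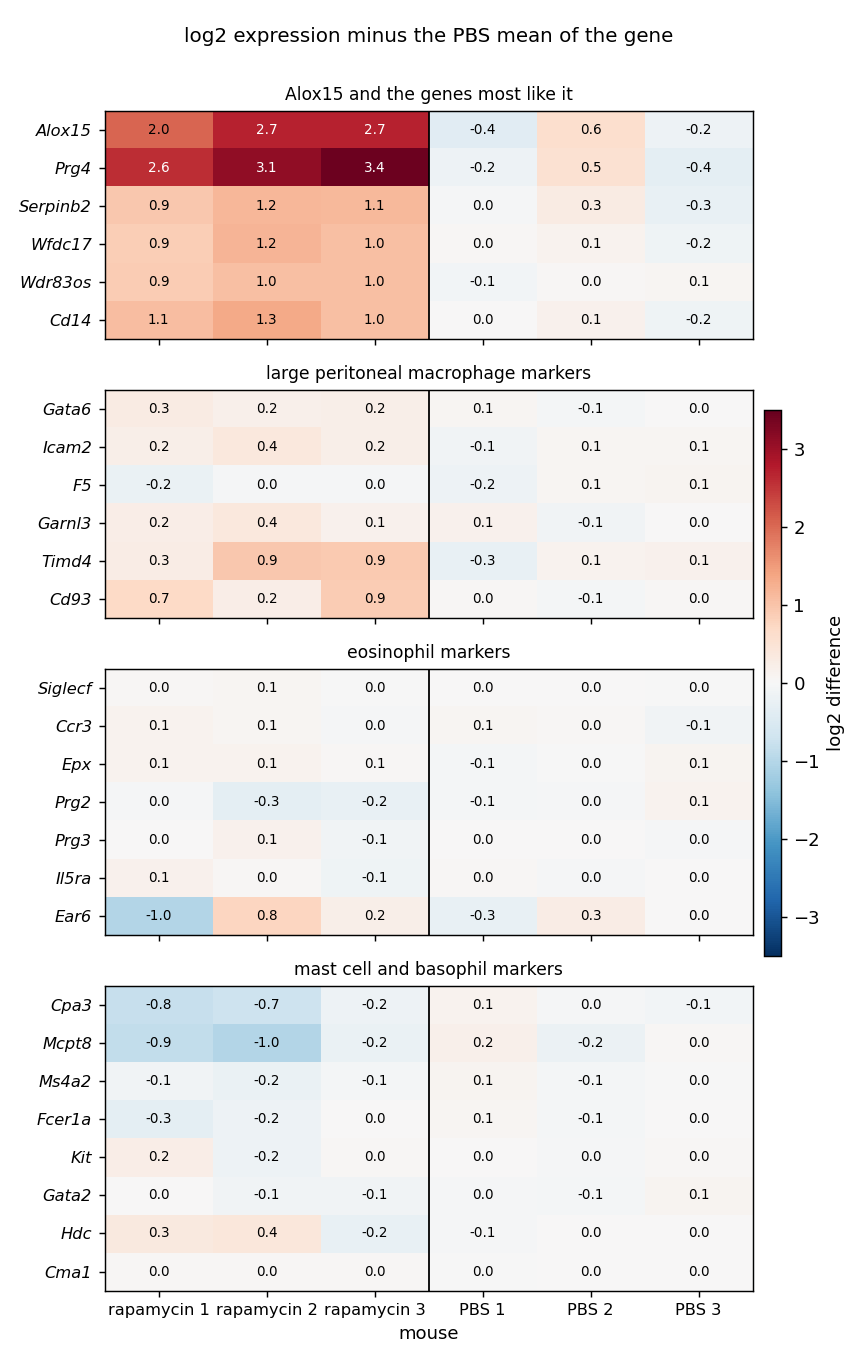
Log2 expression minus the gene's PBS mean in each mouse (columns, the 3 rapamycin mice left of the 3 PBS mice), for Alox15, the 5 genes most like it, and markers of large peritoneal macrophages (Prg4 stands in the top block), eosinophils, and mast cells and basophils; red is above and blue below the PBS mean, and each number is that difference. Alox15 and Prg4 stand out in the 3 rapamycin mice, and Siglecf stays near 0 in all 6 mice.

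The other lipoxygenases showed no such gap. Alox5, the lipoxygenase that starts leukotriene synthesis, gave 10.69, 10.81 and 10.70 in the rapamycin mice, against 10.69, 10.81 and 10.75 in the PBS mice. The groups overlapped fully. The log2 change of Alox5 was -0.016 (limma adjusted p 0.879), with a 95% interval between -0.14 and 0.11. Its sign turned to 0.0072 with the array medians aligned. Alox5ap, which encodes the membrane protein FLAP that presents arachidonic acid to the enzyme, gave 12.33, 12.30 and 12.39 in the rapamycin mice, against 12.17, 12.28 and 12.18 in the PBS mice. Every rapamycin mouse lay above every PBS mouse by a small margin, with a log2 change of 0.13 ± 0.05 (SE) that did not pass the test (limma adjusted p 0.141). After a repeated quantile normalization the change of Alox5ap was 0.013.

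Among the 5 further genes of the lipoxygenase list, Alox12, Alox12b and Aloxe3 lay under the brightness threshold. Alox8, a lipoxygenase of mouse skin, differed by 0.04 ± 0.06 and Alox12e, an epidermal lipoxygenase, by -0.03 ± 0.07 (SE), with limma adjusted p values of 0.739 and 0.830. Neither had an unadjusted p under 0.05. Above the threshold, the groups overlapped for Alox5, Alox8 and Alox12e. Alox15 itself was chosen because its groups stood apart. In the fit of all genes the dim Alox12 differed by -0.19 ± 0.05 and Alox12b by 0.16 ± 0.05 (SE). Their groups did not overlap, which among genes above the threshold held for 32%.

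Downstream of Alox5, both leukotriene synthases overlapped between the groups. Lta4h, the hydrolase that makes leukotriene B4, gave 11.43, 11.49 and 11.41 in the rapamycin mice, against 11.45, 11.63 and 11.40 in the PBS mice. Its log2 change was -0.05 ± 0.07 (SE, limma adjusted p 0.675), with a 95% interval between -0.21 and 0.11, and it was 0.019 without PBS replicate 2. Ltc4s, the synthase of leukotriene C4, the first cysteinyl leukotriene, gave 6.10, 6.95 and 6.90 in the rapamycin mice, against 6.06, 6.75 and 6.35 in the PBS mice. Replicate 1 was the lowest mouse in both groups, and the spread within a group was wide. The log2 change of Ltc4s was 0.26 ± 0.25 (SE, limma adjusted p 0.538) and its 95% interval, between -0.33 and 0.86, was the widest of the 8 genes.

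Of 4 tested further genes of leukotriene synthesis, 0 were called by limma and 2 had an unadjusted p under 0.05, against 28.2% of all genes. Dpep2, a dipeptidase that converts leukotriene D4 to leukotriene E4, gave 7.65, 7.15 and 8.24 in the rapamycin mice, against 7.07, 7.25 and 6.87 in the PBS mice. Rapamycin replicate 2 lay among the PBS mice, and the change of 0.62 ± 0.25 (SE) did not pass the test (limma adjusted p 0.156). Both probe sets of Dpep2 gave a log2 change of 0.62. Ggt5, a glutamyl transferase that acts on leukotriene C4, differed by 0.19 ± 0.06 (limma adjusted p 0.0963), and the microsomal glutathione transferase Mgst3 by -0.06 ± 0.08 (SE, limma adjusted p 0.642). Mast cells and basophils are another source of Ltc4s, and 0 of 5 tested markers of these cells were called by limma. Of them 2, Cpa3 and Mcpt8, were lower at an unadjusted p under 0.05, against 28.2% of all genes in either direction.

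The cyclooxygenase branch gave no call among the genes of the set. Ptgs2, the inducible cyclooxygenase, gave 7.78, 7.65 and 7.06 in the rapamycin mice, against 7.10, 6.82 and 6.94 in the PBS mice. Rapamycin replicates 1 and 2 lay above all PBS mice, whereas rapamycin replicate 3 lay below PBS replicate 1. Ptgs2 differed by 0.54 ± 0.18 (SE), with a 95% interval between 0.12 and 0.96 and a limma adjusted p of 0.0952. Without rapamycin replicate 3 it was 0.76 (adjusted p 0.0179), and it was also called with limma's array weights (0.62, adjusted p 0.0493). Over all alternatives its adjusted p was between 0.0179 and 0.272.

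Ptges, the inducible prostaglandin E synthase that works on the product of Ptgs2, gave 6.69, 6.81 and 7.03 in the rapamycin mice, against 7.11, 7.06 and 7.17 in the PBS mice. Every rapamycin mouse lay below every PBS mouse, with rapamycin replicate 3 close to the PBS mice. Ptges differed by -0.27 ± 0.09 (SE), with a limma adjusted p of 0.0896, and it was -0.36 without rapamycin replicate 3 (adjusted p 0.0251). In both Ptgs2 and Ptges, then, rapamycin replicate 3 was the mouse of its group nearest to the PBS mean.

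**Figure D3:**
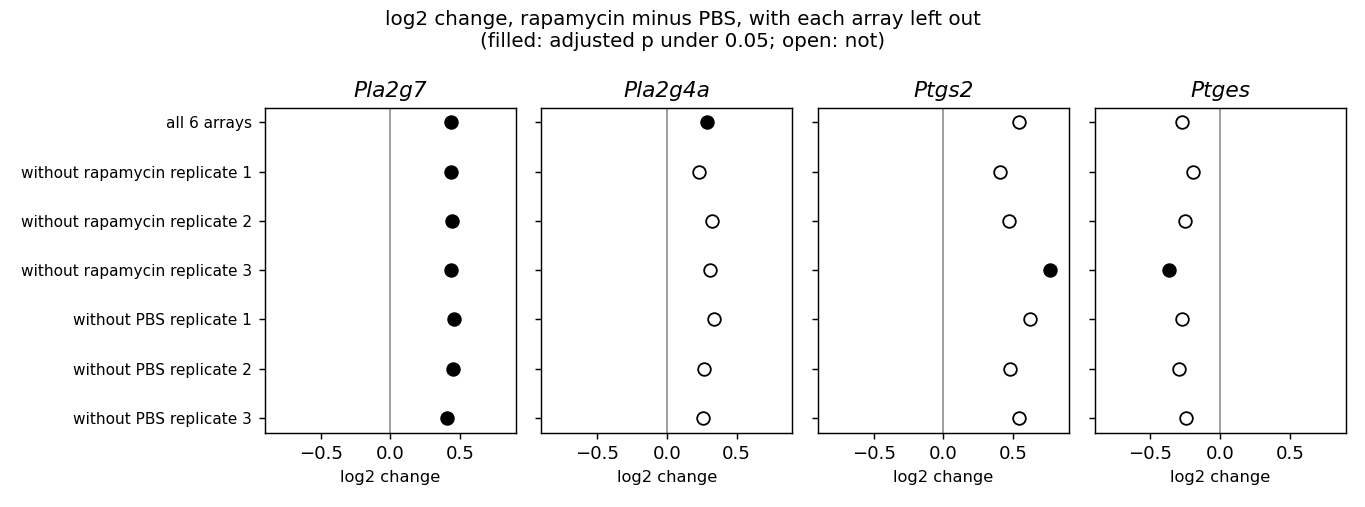
Log2 change, rapamycin minus PBS, of Pla2g7, Pla2g4a, Ptgs2 and Ptges (panels) over all 6 arrays and with each array left out in turn (rows); filled points have an adjusted p under 0.05 and open points do not. Pla2g7 keeps its call in all 6 such fits, Pla2g4a in 0 of 6, and Ptgs2 and Ptges have an adjusted p under 0.05 in 1 of 6, the fit without rapamycin replicate 3.

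Further synthases of the prostanoids were tested beside them. Of 7 genes, 2 rose and 0 fell, against 4.42% higher and 6.92% lower among all genes tested. The median log2 change of the 7 was 0.10. Tbxas1, the thromboxane synthase of platelets and macrophages, gave 8.96, 8.80 and 8.61 in the rapamycin mice, against 8.51, 8.40 and 8.21 in the PBS mice. The groups did not overlap, and Tbxas1 rose by 0.42 ± 0.11 (SE, limma adjusted p 0.0491), a call kept in just 1 of 6 fits with an array left out, the one that dropped rapamycin replicate 3. Ptgis, the prostacyclin synthase, had means of 5.90 ± 0.07 with rapamycin and 5.55 ± 0.05 with PBS (SD, n = 3 each) and rose by 0.34 ± 0.05 (SE, limma adjusted p 0.0130). Its adjusted p was 0.0535 without PBS replicate 2 and 0.0547 without PBS replicate 3. The largest differences among the uncalled synthases were those of Ptges2 (0.16 ± 0.07), the carbonyl reductase Cbr1 (-0.12 ± 0.08) and Hpgds, the prostaglandin D synthase of immune cells (0.10 ± 0.15), all ± SE. Of 3 tested markers of megakaryocytes and platelets 0 were called by limma, against 11.3% of all genes tested. At an unadjusted p under 0.05 there were 0 of the 3, against 28.2%. Gp9 lay just above the brightness threshold, and Pf4 and Ppbp lay under it, so these counts say little about platelet content.

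The phospholipases stand at the head of the pathway and at the breakdown of a related lipid. Pla2g7 encodes the secreted hydrolase of platelet-activating factor, a product of macrophages. It gave 11.84, 11.83 and 11.84 in the rapamycin mice, against 11.44, 11.43 and 11.33 in the PBS mice. The groups were clearly apart and each was tight, with SDs of 0.01 with rapamycin and 0.06 with PBS. Pla2g7 rose by 0.44 ± 0.05 (SE), or 1.35-fold, with a limma adjusted p of 0.00581 that lay between 0.0177 and 0.0459 with each array left out in turn. Beside it, the macrophage gene Cd68 rose by 0.83 ± 0.09 (limma adjusted p 0.00655), while the mannose receptor Mrc1 changed by -1.04 ± 0.14 and the monocyte chemokine receptor Ccr2 by -0.34 ± 0.08 (limma adjusted p 0.00908 and 0.0409). The mean log2 level of the 7 measured monocyte and macrophage markers was between 8.75 and 8.81 with rapamycin and between 8.69 and 8.91 with PBS. The part of macrophage content in the Pla2g7 values was not tested.

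Pla2g4a, the cytosolic phospholipase A2 that frees arachidonic acid from membranes, gave 9.13, 8.95 and 8.97 in the rapamycin mice, against 8.83, 8.69 and 8.67 in the PBS mice. The groups did not overlap. Pla2g4a rose by 0.29 ± 0.07 (SE), or 1.22-fold, with a limma adjusted p of 0.0418. This call was close to the threshold: the adjusted p was between 0.0585 and 0.145 with each array left out in turn, and 0.0572 when all 19938 genes were tested.

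Promoter windows are shown for Ptgs2, Pla2g4a and Pla2g7. Among the measured genes of the set, beside Alox15, these had the largest positive log2 changes whose 95% interval excludes 0. That interval is not adjusted for the number of genes, and Ptgs2 was not called. The windows come from RefSeq (GRCm38.p6) and run from 250 bases before to 50 bases after the gene's start, for Pla2g4a its most upstream one of 2. They lie at chr1:150099781-150100080 on the + strand, chr1:149961241-149961540 on the - strand and chr17:43568201-43568500 on the + strand. Of the 10 genes, 8 matched an entry. Alox15 and Alox5ap had none, so no window of either was searched. Both strands were searched for TTGCGCAA (a C/EBP palindrome), TGACGT (a cAMP response element), CACGTG (an E-box), an NF-kB motif (GGG, any 5 bases, then CC), TGANTCA (AP-1) and the core promoter box TATAAA. Capitals mark the matches.
Ptgs2: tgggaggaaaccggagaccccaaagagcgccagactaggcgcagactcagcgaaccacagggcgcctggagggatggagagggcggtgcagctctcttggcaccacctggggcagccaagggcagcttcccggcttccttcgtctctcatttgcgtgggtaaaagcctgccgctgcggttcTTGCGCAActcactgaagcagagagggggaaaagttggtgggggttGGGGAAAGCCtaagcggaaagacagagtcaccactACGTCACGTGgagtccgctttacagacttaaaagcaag
Pla2g4a: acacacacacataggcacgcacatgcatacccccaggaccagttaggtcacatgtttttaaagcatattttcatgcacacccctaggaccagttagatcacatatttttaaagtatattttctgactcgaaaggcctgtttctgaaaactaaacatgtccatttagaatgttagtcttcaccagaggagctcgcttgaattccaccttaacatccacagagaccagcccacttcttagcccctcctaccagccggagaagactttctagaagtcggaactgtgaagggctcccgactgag
Pla2g7: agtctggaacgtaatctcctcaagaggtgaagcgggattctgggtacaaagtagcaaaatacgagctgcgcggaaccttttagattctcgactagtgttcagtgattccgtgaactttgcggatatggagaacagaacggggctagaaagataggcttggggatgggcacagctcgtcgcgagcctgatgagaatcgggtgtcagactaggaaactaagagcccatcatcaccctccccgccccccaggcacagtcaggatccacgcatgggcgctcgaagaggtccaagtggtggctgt
In the Ptgs2 window a TTGCGCAA match stood at bases 182 to 189, counted from the window's 5′ end. A TGACGT match (read as its reverse complement ACGTCA) stood at bases 263 to 268 and an overlapping CACGTG match at bases 267 to 272. These last 2 lie after the start that RefSeq gives, which was not compared with mapped starts of transcription. The window also held a match to the NF-kB motif at bases 228 to 237. Of 32851 windows of this length, 0.183% held TTGCGCAA, 7.51% TGACGT, 7.15% CACGTG and 50.8% the NF-kB motif. The Pla2g4a and Pla2g7 windows held none of the 6 motifs, which says only that these letters are not there (TGANTCA was in 7.81% and TATAAA in 13.6% of all windows).

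In the wider eicosanoid pathway, 57 further genes from 8 lists were tested, and 3 rose and 6 fell, against 4.42% higher and 6.92% lower among all genes. The median log2 change of the 57 was 0.013. The 3 that rose were enzymes (Tbxas1, Ptgis and Pla2g3), and the 6 that fell were 3 receptors, a reductase, an exporter and an acyltransferase (Ptger1, Ptgir, Ltb4r1, Ptgr1, Abcc4 and Lpcat1). The count of 9 depended on single arrays. Leaving out PBS replicate 1, 2 or 3 gave 5, 1 or 2 calls, and leaving out rapamycin replicate 1, 2 or 3 gave 3, 4 or 10. Ptgr1 was called in all 6 such fits and Ptger1 in 5 of 6.

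Among 11 tested receptors of prostanoids, leukotrienes and platelet-activating factor, 3 fell and 0 rose, against 6.92% and 4.42% of all genes tested. Ptger1, a receptor of prostaglandin E2, gave 6.40, 6.23 and 6.40 in the rapamycin mice, against 6.82, 6.77 and 6.83 in the PBS mice. Every rapamycin mouse lay below every PBS mouse, and Ptger1 changed by -0.46 ± 0.06 (SE, limma adjusted p 0.00770, and 0.0504 without PBS replicate 2). Ltb4r1, the high-affinity receptor of leukotriene B4 that guides neutrophils, gave 9.24, 9.20 and 9.37 in the rapamycin mice, against 9.51, 9.78 and 9.78 in the PBS mice. It changed by -0.42 ± 0.09 (SE, limma adjusted p 0.0273), a call kept in 2 of 6 fits with an array left out. Ptgir, the prostacyclin receptor, changed by -0.26 ± 0.06 (limma adjusted p 0.0452), a call kept in 0 of 6 such fits and lost with the array medians aligned. The largest differences among the uncalled receptors were those of Cysltr1, a receptor of cysteinyl leukotrienes (0.28 ± 0.15), Ptger4, a receptor of prostaglandin E2 (-0.25 ± 0.07), and the thromboxane receptor Tbxa2r (0.13 ± 0.10), all ± SE. Beside these receptors, 0 of 8 neutrophil markers were called by limma, against 11.3% of all genes tested. At an unadjusted p under 0.05 there were 0 of the 8, against 28.2%. Their largest difference was that of Ly6g (-0.31 ± 0.14 SE, limma adjusted p 0.202), and the others differed in both directions. The mean log2 level of the 8 was between 12.48 and 12.70 with rapamycin and between 12.61 and 12.68 with PBS. The part of neutrophil content in the receptor values was not tested.

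Of 7 tested genes of breakdown and transport 2 fell and 0 rose, against 6.92% and 4.42% of all genes tested. Ptgr1, the reductase that inactivates leukotriene B4 and oxidised prostaglandins, lay between 7.87 and 8.02 in the 3 rapamycin mice, against 8.36 to 8.46 in the 3 PBS mice. The groups did not overlap, and Ptgr1 changed by -0.46 ± 0.06 (SE, limma adjusted p 0.00770, and between 0.0189 and 0.0462 with each array left out in turn). Abcc4, an exporter of prostaglandins and cyclic nucleotides, changed by -0.23 ± 0.05 (limma adjusted p 0.0331), a call kept in 0 of 6 such fits. The uncalled genes with the largest differences were the prostaglandin transporter Slco2a1 (0.26 ± 0.09), the epoxide hydrolase Ephx1 (0.24 ± 0.09) and the reductase Ptgr2 (-0.14 ± 0.06), all ± SE.

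Of 9 tested genes for the return of fatty acids, not arachidonic acid alone, to phospholipids 1 fell and 0 rose. Among all genes tested 6.92% fell and 4.42% rose. Lpcat1, an acyltransferase that makes phosphatidylcholine and can make platelet-activating factor, gave 8.35, 8.28 and 8.52 in the rapamycin mice, against 8.82, 8.95 and 9.05 in the PBS mice. Its change of -0.55 ± 0.08 (SE, limma adjusted p 0.0109) was the largest downward one of the 57 genes over all 6 arrays, and the call was kept in 3 of 6 fits with an array left out. Lpcat4, Mboat7 and Mboat1, further acyltransferases, differed by -0.25 ± 0.10, -0.19 ± 0.07 and 0.17 ± 0.07 (SE), none past the test.

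Of 13 tested phospholipases A2 and hydrolases of platelet-activating factor outside the set 1 rose and 0 fell, against 4.42% and 6.92% of all genes tested. Pla2g3, a secreted phospholipase A2, averaged 5.50 ± 0.02 with rapamycin and 5.30 ± 0.06 with PBS (SD, n = 3 each) and rose by 0.20 ± 0.05 (SE, limma adjusted p 0.0405), a call kept in 0 of 6 fits with an array left out. The uncalled members with the largest differences were Pafah2, an intracellular hydrolase of platelet-activating factor (-0.33 ± 0.10), the lysosomal phospholipase Pla2g15 (0.26 ± 0.08) and the calcium-independent phospholipase Pla2g6 (0.18 ± 0.06), all ± SE. Of 4 tested genes for the reception of pro-resolving lipids and for annexin A1, 0 were called by limma. Of them 1, Anxa1, had an unadjusted p under 0.05, against 28.2% of all genes. The largest differences were those of the lipid receptor Gpr18 (0.19 ± 0.09), Cmklr1, a receptor of chemerin and a resolvin (0.18 ± 0.10), and Anxa1 (-0.12 ± 0.05), all ± SE. The groups did not overlap for Gpr18 and Anxa1, 2 of the 4, against 32% of all genes tested.

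**Figure D4:**
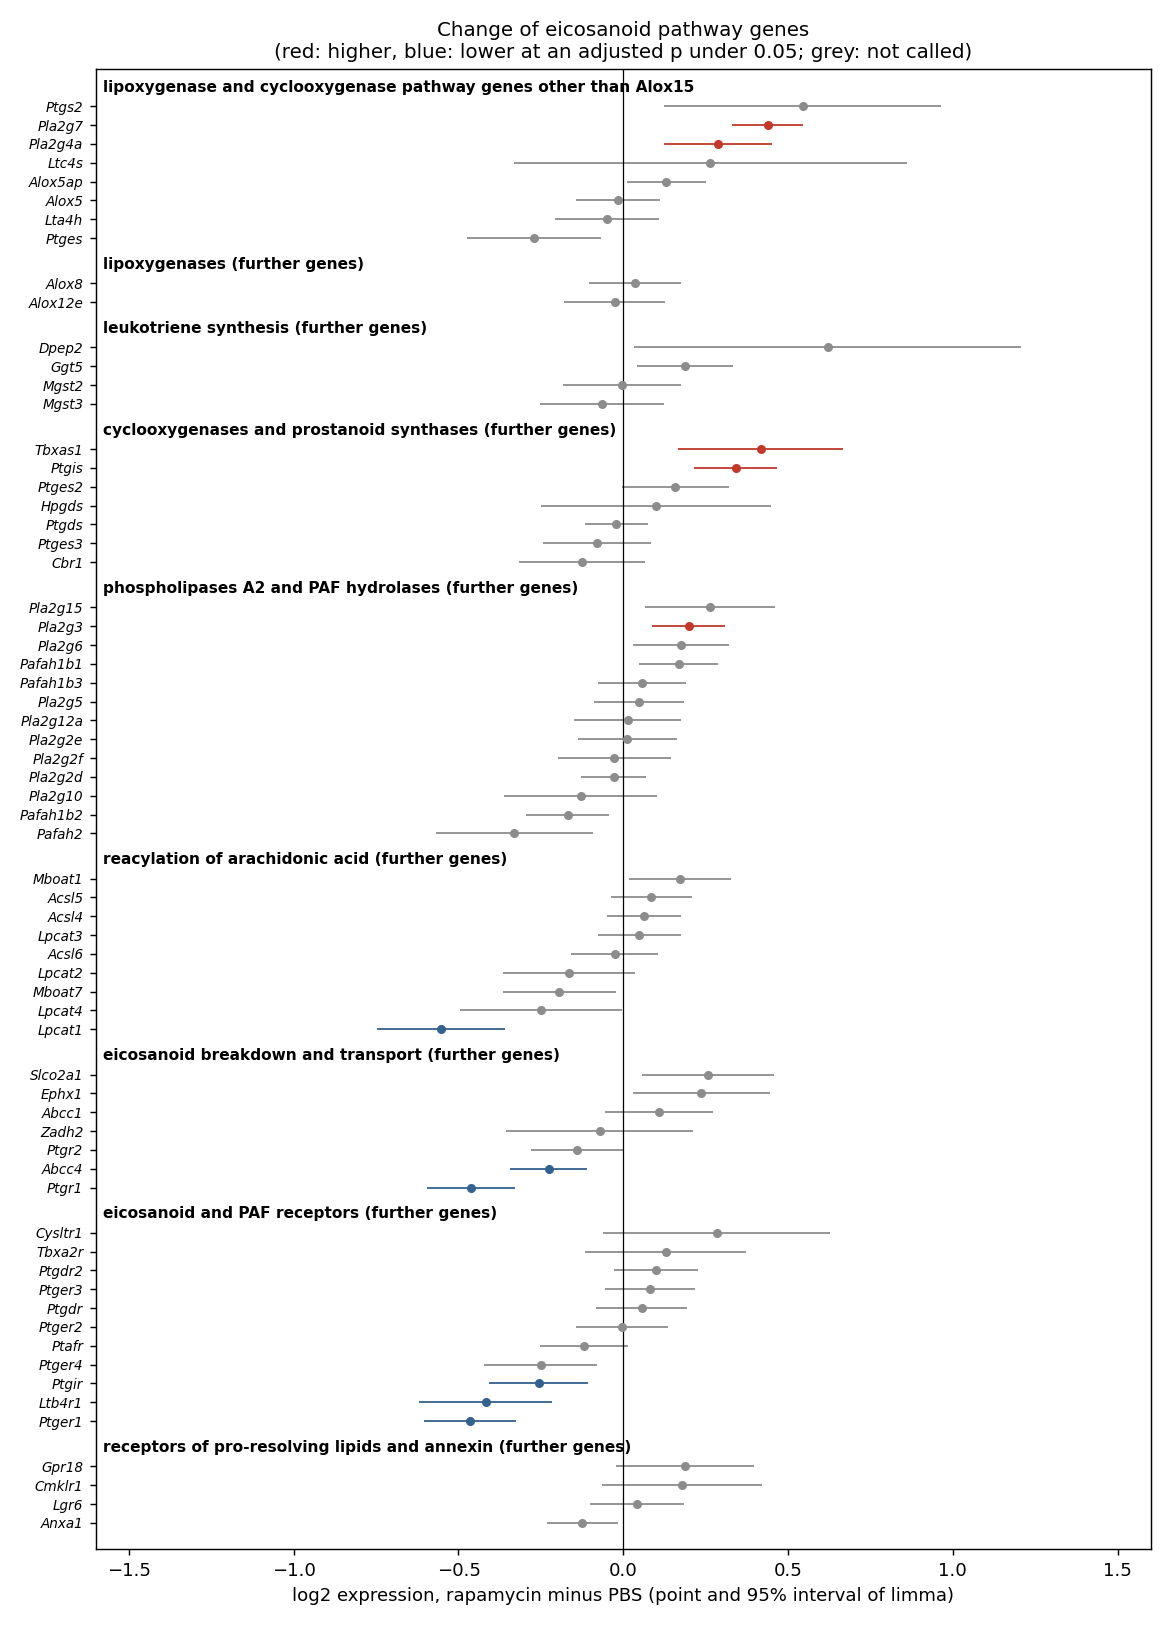
Log2 change, rapamycin minus PBS, of the 8 measured genes of the set other than Alox15 and of 57 further genes of the eicosanoid pathway, grouped by role, as points with limma's 95% intervals; red genes are called higher, blue genes lower and grey genes are not called. Of the 8 genes, Pla2g4a and Pla2g7 are called higher. Of the 57 further genes 3 are called higher, 2 synthases and 1 phospholipase A2. Lower are 6, namely 3 receptors, 2 genes of breakdown and transport and 1 acyltransferase. Among all genes tested 4.42% were called higher and 6.92% lower.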

How the data were processed

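Total RNA of CD11b-sorted spleen cells from 6 mice, 3 given rapamycin and 3 given PBS, was read on 1 array per mouse. The values the authors deposited are on a log2 scale, 1 per probe set and array. They come from RMA as run by Affymetrix Expression Console, per the submitters' processing notes, which give no version. RMA equalises the arrays' distributions, so it would take out a shift shared by most genes. The labels call the mice biological replicates, and no 2 arrays had exactly the same deposited value, at all its decimals, for more than 6.99% of probe sets.

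Gene names came from the annotation of the array platform in GEO, dated 2016. Of 35556 probe sets, 21789 had 1 symbol, 1621 several and 12146 none, and those with several or none were left out. Of the first, 21698 matched a RefSeq gene (GRCm38.p6) by Entrez ID. Coordinates printed are those of RefSeq.

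Groups were compared with limma 3.58.1 (lmFit and eBayes, 2-sided) in R 4.3.3, over 13965 genes, with Benjamini-Hochberg adjustment. Errors written ± SE and the 95% intervals are limma's moderated ones. The fit was tested on simulated data. Alternatives were the brightness filter (none or the 50th percentile), the normalization, averaging of probe sets per gene, the variance model, array weights, a replicate block and each array left out. The members and lists were chosen with earlier results of these data known. The text names all members, of each list the called genes and up to 3 uncalled ones with the largest change, the 5 genes most like Alox15, its 3 neighbours on either side, and cell type markers read beside a result. No scan date is given, so batches were not tested.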

Additional observations from a re-analysis of the deposited data

How the results depend on the processing

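Of the 8 measured genes other than Alox15, 2 were called, and the count was 1 with no brightness filter and between 1 and 3 with an array left out. Of the 57 further pathway genes 9 were called, with a count between 1 and 10 with an array left out and between 7 and 10 under the other alternatives. The log2 change of Alox5, which did not pass the test in any fit, was 0.0072 with the array medians aligned and ran between -0.053 and 0.016 with an array left out, and that of Lta4h between -0.094 and 0.019. The log2 change of Alox15 was between 2.32 and 2.49 under the alternatives that keep all arrays. Same-numbered mice did not deviate together in every pair (correlations of 0.263, 0.010 and 0.046 for numbers 1, 2 and 3). The value for number 1 was the highest of all pairs of a rapamycin and a PBS mouse. With 3 mice a group these correlations cannot show whether the numbers pair mice, and the labels do not say. With the replicate block 3 of the 8 genes (Ptgs2 in addition) and 10 of the 57 were called, and 1691 in place of 1584 of all genes. Over all genes, leaving out an array gave between 113 (without PBS replicate 2) and 1336 calls. Pla2g3 lost its call with the block and with a repeated quantile normalization, Abcc4 with the array medians aligned, and Tbxas1 and Ptgir with no brightness filter. The cause of these differences was not tested, but a fit with an array left out also has fewer samples. With 3 mice a group, a gene with the spread of Ltc4s has a wide interval.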

Other observations

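Alox15 lies on chromosome 11 beside other lipoxygenase genes, and the nearest genes with a named probe set were read on either side of it (order from RefSeq, GRCm38.p6). On one side, Alox12e gave 4.94, 4.94 and 4.74 in the rapamycin mice, against 4.84, 4.92 and 4.94 in the PBS mice, Alox12 lay under the brightness threshold, and Rnasek, a transmembrane ribonuclease, rose by 0.28 ± 0.06 (SE, limma adjusted p 0.0243). On the other side, the nuclear receptor coactivator Pelp1 differed by 0.05 ± 0.07, the arrestin Arrb2 by -0.07 ± 0.06 and the Mediator subunit Med11 by 0.01 ± 0.04 (SE), none past the test.

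Ear6, which encodes an eosinophil-associated ribonuclease, was picked after its values were seen. It gave 7.12, 8.89 and 8.34 in the rapamycin mice, against 7.87, 8.40 and 8.15 in the PBS mice. In both groups replicate 1 was the lowest mouse and replicate 2 the highest, as for Ltc4s and Alox15. Between the groups Ear6 differed by -0.02 ± 0.41 (SE, limma adjusted p 0.983).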
